A study of Mus musculus with 2 samples.

Results

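Dlx1, Dlx2, Dlx5 and Dlx6 are the distal-less homeobox genes of the forebrain, and they were followed here as the 4 rows with these symbols among the 28001 features counted in mouse septal explants and the 32286 features counted in whole telencephalic vesicles. The members were chosen by name and not by a rule on their values, though earlier results of these data were known. They encode homeodomain transcription factors that sit in the genome as convergently transcribed pairs, Dlx1 with Dlx2 and Dlx5 with Dlx6. In the embryonic telencephalon they are known as regulators of the subpallium, the ventral part that produces GABAergic neurons, and they act upstream of genes such as those for the GABA-synthesising enzymes Gad1 and Gad2. Apical progenitors (APs) of the subpallium give rise to intermediate dividing cells and then to postmitotic neurons.

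Single-cell RNA sequencing (scRNAseq) with droplet kits that count the 3′ end of transcripts gave 1 library for each tissue. The septal explants came from 8 E11.5 embryos carrying PGKCre and Rosa26YFP, a reporter recombined in all cells, pooled with 4 E12.5 embryos carrying Dbx1Cre and Rosa26tdTomato, a reporter recombined in cells that express Dbx1 and their progeny. The vesicle library was pooled from 3 WT embryos labelled E12, for which the methods give a range from E11.5 to E12. All embryos are recorded as wild-type C57BL/6J apart from these reporters. With 1 library per tissue and pooled embryos there was no replicate, so no difference was tested. Intervals are 95% exact intervals (Clopper-Pearson for shares of cells, Poisson for sums of unique molecular identifiers, UMIs) and cover counting error only. The libraries used different kits and software, so levels were compared within a library and not between libraries. Kits of this type do not count genes with equal efficiency either, so levels were compared for each gene across cells. An order of members by detection or by UMIs describes what was counted and not transcript abundance.

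The septal library held 5827 barcodes with a median of 12722 UMIs, of which 5384 cells were kept. The vesicle library held 14283 barcodes with a median of 8503 UMIs, of which 11758 were kept. Only 1 barcode sequence occurred in both. A member UMI was present in 1234 septal and 3502 vesicle barcodes. Cells were clustered without the Dlx genes, and clusters were named from markers. The classes of cells used here are subpallial-like APs, clusters intermediate between APs and neurons, GABAergic-like neurons, and non-neural cells (blood, macrophages, endothelium and mesenchyme), which served as a measure of free RNA. The first 3 formed the subpallial lineage, with 1045, 234 and 226 cells in the septum and 2737, 530 and 645 in the vesicle. The septal GABAergic-like cluster met 7 of 8 GABAergic markers and 5 of them were among its 10 leading genes. Septal AP clusters 8 and 14 and vesicle AP cluster 1 had none of the subpallial markers among theirs. The vesicle intermediate class was a single cluster near the border of its definition, and with another random seed no vesicle cluster met it.

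Dlx1 (ENSMUSG00000041911) lies on chromosome 2 from 71528113 to 71533981 on the plus strand of GRCm38 (mm10), and Dlx2 (ENSMUSG00000023391) from 71543408 to 71546754 on the minus strand, 9426 bp away. Dlx6 (ENSMUSG00000029754) lies on chromosome 6 from 6863334 to 6868568 on the plus strand, and Dlx5 (ENSMUSG00000029755) from 6877805 to 6882085 on the minus strand, 9236 bp away. All 4 are protein coding, with 2 or 3 exon blocks in GENCODE M21. The antisense gene Dlx1as covers the whole of Dlx1 and shares 335 bp of exon with it. The antisense gene Dlx6os1 covers the whole of Dlx6 but shares no exonic base with it. Counts of Dlx1 and Dlx1as are uncertain where their exons overlap, since the settings of counting in the vesicle library are not given in the sources used here.

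RefSeq start sites gave a promoter window, from 250 bases before to 50 after the start, for 2 of the 4 members, Dlx1 and Dlx2, and none for Dlx5 and Dlx6. Both windows are shown as the start regions of the pair found in APs. They are chr2:71529195-71529494 on the plus strand for Dlx1, inside the GENCODE gene, and chr2:71546705-71547004 on the minus strand for Dlx2, in GRCm38.p6, written 5′ to 3′ on the gene's strand. Both strands were searched for the homeodomain core TAATT, the E-boxes CAGCTG and CACGTG and the CCAAT box. Matches are in capitals.
Dlx1: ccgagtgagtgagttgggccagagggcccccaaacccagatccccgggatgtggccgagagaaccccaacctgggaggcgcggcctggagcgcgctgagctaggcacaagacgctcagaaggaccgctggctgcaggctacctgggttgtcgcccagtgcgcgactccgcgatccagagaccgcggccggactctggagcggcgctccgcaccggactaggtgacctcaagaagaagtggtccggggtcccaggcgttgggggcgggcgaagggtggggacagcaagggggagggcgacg
Dlx2: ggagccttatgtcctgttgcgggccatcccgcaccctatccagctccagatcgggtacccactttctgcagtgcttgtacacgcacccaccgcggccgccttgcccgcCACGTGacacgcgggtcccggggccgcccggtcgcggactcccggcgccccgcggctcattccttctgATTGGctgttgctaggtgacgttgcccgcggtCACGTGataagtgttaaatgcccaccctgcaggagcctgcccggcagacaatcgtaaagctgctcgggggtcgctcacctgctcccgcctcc
The Dlx1 window held none of these letters. The Dlx2 window held CACGTG at bases 109 and 209 of the window and a reverse CCAAT at base 177. Among all 32851 promoter windows of this length, 7.15% held CACGTG, 37.4% CCAAT, 27.0% TAATT and 16.3% CAGCTG. The CACGTG and CCAAT searches were added after the sequences had been read.

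Dlx2 was the member most widely detected in APs. In the septum 26.7% (24.0 to 29.5%) of subpallial-like APs held a Dlx2 UMI, at 44.5 CPM (UMIs scaled to the total of the summed cells, 41.3 to 47.9). In the vesicle 31.1% (29.4 to 32.9%) did, at 53.3 CPM (51.1 to 55.5). Dlx1 was found in 9.57% of septal APs at 10.6 CPM and in 16.4% of vesicle APs at 32.5 CPM. Both genes were above their level in non-neural cells, where Dlx2 reached 4.59 CPM (1.84 to 9.46) in the septum and 5.55 CPM (4.30 to 7.05) in the vesicle, and Dlx1 0.656 and 4.23 CPM. For septal Dlx1 that level rests on 1 UMI in 70 cells and depends on the cells chosen. Its interval in septal APs (9.08 to 12.3) overlapped those of hem-like cells (9.03 CPM, 5.59 to 13.8) and septal glutamatergic neurons (8.21 CPM, 4.69 to 13.3). It also overlapped that of the unnamed septal cluster. The intervals of the classes ranked lower, such as pallial-like APs (2.24 CPM, 1.51 to 3.2), lay below it. The median depth was 13758 UMIs in septal APs against 19923.5 in septal non-neural cells, and 10431 against 8991 in the vesicle.

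Dlx5 in APs was at or near that background. It reached 1.74 CPM (1.15 to 2.51) in septal APs against 0.656 CPM (0.0166 to 3.65) in non-neural cells, and 2.70 CPM (2.23 to 3.23) in vesicle APs against 3.40 CPM (2.44 to 4.61). Dlx6 gave 1 UMI in 1045 septal APs and 44 UMIs in 2737 vesicle APs, 1.01 CPM (0.737 to 1.36) against 0.580 CPM (0.233 to 1.196) in vesicle non-neural cells. No Dlx6 UMI was seen in the 70 septal non-neural cells, where the floor of 3 cells corresponds to 4.29%. Over the AP classes as a whole, Dlx5 and Dlx6 were not detectable above the non-neural level at this depth. That level depends on the cells chosen, as vesicle macrophages alone held Dlx5 at 10.6 CPM (5.79 to 17.8). Vesicle pallial-like APs were lower than the subpallial-like APs, at 1.59 CPM (1.19 to 2.08) for Dlx5 and 0.300 CPM (0.144 to 0.552) for Dlx6. The intervals of vesicle hem-like APs overlapped, at 2.40 CPM (1.78 to 3.16) and 0.431 CPM (0.197 to 0.819).

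In intermediate clusters all 4 members were far above their AP level. In the septum Dlx1 stood at 341 CPM, Dlx2 at 546 CPM, Dlx5 at 150 CPM and Dlx6 at 16.8 CPM. In the vesicle the values were 547 CPM for Dlx1, 527 CPM for Dlx2, 150 CPM for Dlx5 and 31.9 CPM for Dlx6. The share of cells with a UMI had the same order in both libraries, from 65.8% and 87.4% for Dlx2 through 50.9% and 81.1% for Dlx1 to 25.2% and 42.5% for Dlx5.

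In septal GABAergic-like neurons nearly every cell held Dlx2 (99.6%, 97.6 to 99.99%), Dlx5 (98.7%, 96.2 to 99.7%) and Dlx1 (94.2%, 90.4 to 96.9%). Dlx6, the sparsest member, was detected in 35.8% (29.6 to 42.5%). In vesicle GABAergic-like neurons the shares were 88.7% for Dlx2, 89.3% for Dlx5, 71.9% for Dlx1 and 27.0% for Dlx6. From intermediate clusters to neurons Dlx5 was higher in both libraries, at 760 CPM (725 to 795) in the septum and 403 CPM (385 to 422) in the vesicle. In the septum Dlx1 and Dlx2 were higher too, at 576 and 881 CPM. In the vesicle they were lower in the neurons than in the intermediate cluster, at 287 CPM (271 to 303) and 406 CPM (388 to 425). The shares were repeated after thinning each cell to 8000 UMIs in the septum and 3500 in the vesicle, which left out 511 and 1145 shallower cells. Septal neurons then held Dlx2 and Dlx5 in 98.4% of cells each. At 3500 UMIs the vesicle share for Dlx1 was 72.1% in the intermediate cluster and 55.0% in the neurons, and for Dlx2 77.8% (73.9 to 81.3%) and 73.4% (69.8 to 76.9%), with overlapping intervals. The lower share in neurons was thus seen at both depths for Dlx1 and not at the deposited depth for Dlx2.

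**Figure D1:**
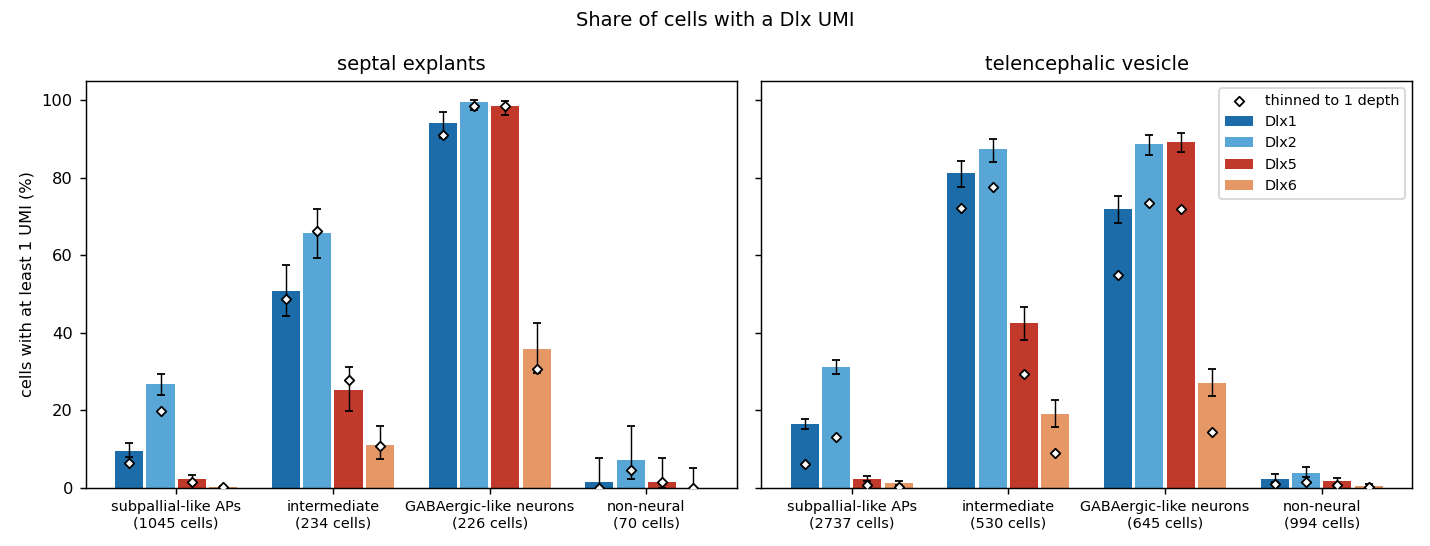
Share of cells (%) with at least 1 UMI of each member in 4 classes of cells, septal explants on the left and telencephalic vesicle on the right, bars with exact 95% intervals at the deposited depth and diamonds after thinning each cell to 1 depth. Dlx2 was the member found in most APs (26.7% and 31.1%), while Dlx5 stayed at 2.20% and 2.30% there and reached 98.7% and 89.3% in GABAergic-like neurons.

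The make-up of the members' summed UMIs shifted along the lineage. In the septum Dlx2 gave 78.2% (75.4 to 80.8%) of the 917 member UMIs in APs, 51.8% of 2689 in intermediate clusters and 38.8% (37.5 to 40.1%) of 5558 in neurons. The part from Dlx5 went the other way, from 3.05% through 14.2% to 33.5%. In the vesicle Dlx2 went from 59.5% through 41.9% to 35.5% and Dlx5 from 3.01% through 11.97% to 35.2%. Dlx1 made up 18.6% in septal APs, 32.4% in intermediate clusters and 25.4% in neurons, and in the vesicle the 3 values were 36.4%, 43.6% and 25.03%. In vesicle non-neural cells, where 166 member UMIs were found, Dlx5 made up 24.7% (18.3 to 32.0%), which lies between its part in intermediate cells and in neurons and not near its part in APs.

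To place onset more finely, each lineage cell was placed on an axis, the log2 of its neuronal over its AP gene UMIs without the Dlx genes, and the axis was cut into 10 bins of equal cell number. Septal Dlx2 stood between 26.1 and 65.9 CPM in bins 1 to 6, then at 123 CPM in bin 7, 413 in bin 8, 895 in bin 9 and 842 in bin 10. Dlx1 followed at 49.9, 241, 618 and 532 CPM in bins 7 to 10. Dlx5 was at 8.15 CPM in bin 7 and 53.5 in bin 8, and reached 564 and 773 CPM only in bins 9 and 10. Dlx6 went from 0.509 CPM in bin 7 to 8.38, 49.6 and 50.3 CPM. All 4 members first reached 50% of their maximum in bin 9, so by this measure none came before another in the septum. At bin 8 Dlx1 and Dlx2 were already at 241 and 413 CPM.

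In the vesicle Dlx1, Dlx2 and Dlx6 first reached 50% of their maximum in bin 8 and Dlx5 in bin 9. Dlx2 was at 156 CPM in bin 7 and 409, 526 and 350 CPM in bins 8 to 10, and Dlx1 at 117, 452, 468 and 253 CPM. Both were lower in the last bin than at their maximum, Dlx1 at 54.2% and Dlx2 at 66.6% of it. Dlx5 was at 11.9, 109, 381 and 380 CPM and Dlx6 at 4.10, 26.2, 48.8 and 50.2 CPM, with the last 2 bins level for both. Bin 9, where Dlx1 and Dlx2 peaked, still held the mitosis genes at 2661 CPM in the vesicle and 1400 CPM in the septum. In bin 10 they were at 643 and 265 CPM. Gad2, which makes GABA, was highest in bin 10, at 788 CPM in the vesicle and 401 CPM in the septum.

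**Figure D2:**
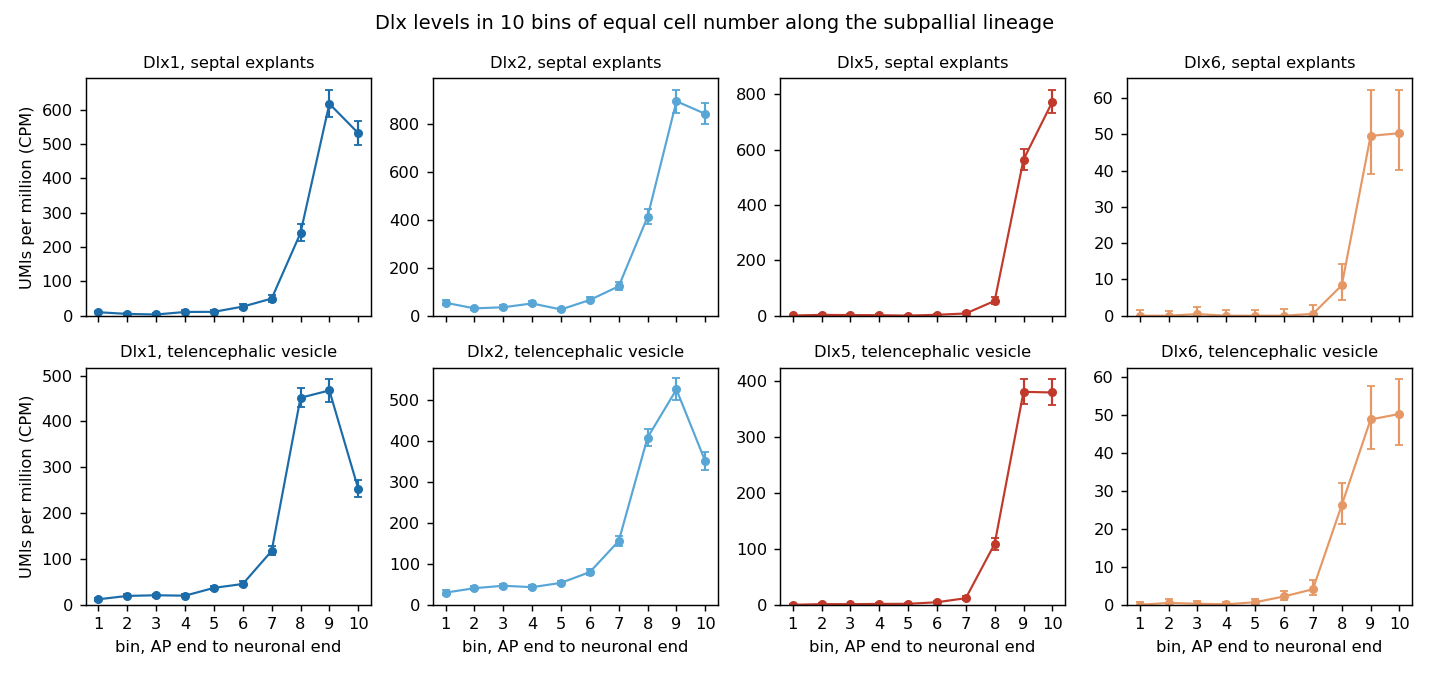
Level of each member (CPM, y axis from 0, scale differs between panels) in 10 bins of lineage cells from the AP end to the neuronal end, upper row septal explants, lower row telencephalic vesicle, error bars exact 95% Poisson intervals. Dlx1 and Dlx2 climb between bins 7 and 9 and in the vesicle drop to 253 and 350 CPM in bin 10, while Dlx5 and Dlx6 stay at their high level there.

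The share of a gene's own UMIs in bins 1 to 5, the AP side, orders the members without comparing levels between genes. It weighs a gene's AP-side UMIs against its later ones and does not place its onset. In the septum it was 11.4% (10.5 to 12.4%) for Dlx2, 4.16% (3.40 to 5.03%) for Dlx1, 0.925% (0.574 to 1.41%) for Dlx5 and 0.575% (0.0145 to 3.16%) for Dlx6. In the vesicle it was 21.7% (20.7 to 22.7%) for Dlx2, 14.1% (13.2 to 15.1%) for Dlx1, 1.52% (1.08 to 2.06%) for Dlx5 and 2.64% (1.33 to 4.68%) for Dlx6. The intervals of Dlx2 and Dlx1 were apart from each other and from those of Dlx5 in both libraries, while those of Dlx5 and Dlx6 overlapped. For comparison, 52.6% and 55.0% of UMIs of Gsx2, a homeobox factor of subpallial progenitors, lay on the AP side, against 0.605% and 1.10% of Gad1 UMIs. Dlx2 and Dlx1 thus lay between this progenitor factor and the GABA enzyme, and Dlx5 beside the enzyme. Of Dlx6os1 UMIs, 0.881% and 0.714% lay there. The shares depended on depth and binning. Once each cell was thinned to 1 depth, Dlx1 was at 2.65% in the septum, and Dlx1 and Dlx2 at 6.09% and 11.7% in the vesicle. With bins of equal width in place of equal cell number, the septal shares were 19.3% for Dlx1, 30.4% for Dlx2 and 3.79% for Dlx5. The vesicle shares were then 61.2% (59.9 to 62.5%) for Dlx1, 62.5% (61.3 to 63.7%) for Dlx2 and 19.1% for Dlx5, so the intervals of Dlx1 and Dlx2 overlapped there.

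The AP level was uneven between clusters. In the septum Dlx2 stood at 62.5 CPM in AP cluster 7, led by Gsx2, at 42.1 and 42.4 CPM in AP clusters 8 and 14, and at 5.08 CPM in cluster 22, led by Nkx2-1. In the vesicle the AP cluster with Nkx2-1, Olig2 and Shh among its leading genes (cluster 9, 1136 cells) held Dlx2 at 63.3 CPM and Dlx1 at 43.9 CPM. Vesicle AP cluster 1 held 59.7 and 35.8 CPM, and AP clusters 0 and 5 held Dlx2 at 38.9 and 23.6 CPM. A low Dlx level in Nkx2-1-led APs was thus seen in the septum but not in the vesicle, and whether these are like cells was not tested. Some clusters outside the subpallial class also held Dlx2. In the septum these included AP clusters 10 (62.2 CPM) and 11 (13.2 CPM), the unnamed cluster 16 (28.5 CPM, 18.3 to 42.4) and hem-like cells (18.1 CPM, 13.0 to 24.4). In the vesicle they included AP cluster 28 (60.1 CPM), which had the subpallial marker Gsx2 among its leading genes. They also included 1 septal-like AP cluster (16.8 CPM) and ventral pallium-like (VP) APs (14.6 CPM). The unnamed vesicle clusters held 81.9 CPM (71.5 to 93.5) in sum, and 1 of them met 5 of the 8 GABAergic markers. Pallial-like APs had 6.51 and 4.69 CPM, near the non-neural level.

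Of the intermediate septal clusters, cluster 1 (169 cells, led by Gsx1) held Dlx5 at 73.9 CPM and Dlx6os1 at 5.73 CPM, and cluster 28 (65 cells, with Gsx2 among its leading genes) held Dlx5 at 271 CPM and Dlx6os1 at 115 CPM. Their Dlx1 levels were 357 and 316 CPM. Cluster 28 lay lower on the axis (median 0.074 against 0.714), near the border of the definition of the class. It met 6 GABAergic markers against 1 in cluster 1. In the vesicle the GABAergic-like cluster led by Lhx8 and Lhx6 (cluster 14) was lower in Dlx1, Dlx2 and Dlx5 (222, 334 and 351 CPM) than cluster 15 (363, 491 and 465 CPM), while Dlx6 was level at 49.7 and 48.6 CPM. An unnamed vesicle cluster of 135 cells was led by Mgat4c, Tac1 and Chrm3 and met 5 of the 8 GABAergic markers. Its leading genes included Ebf1, listed here both as a septal glutamatergic marker and as a factor of subpallial neurons. This cluster held the highest Dlx6 level of any, 103 CPM. Dlx1 and Dlx2 were at 152 and 135 CPM beside Dlx5 at 280 CPM.

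**Figure D3:**
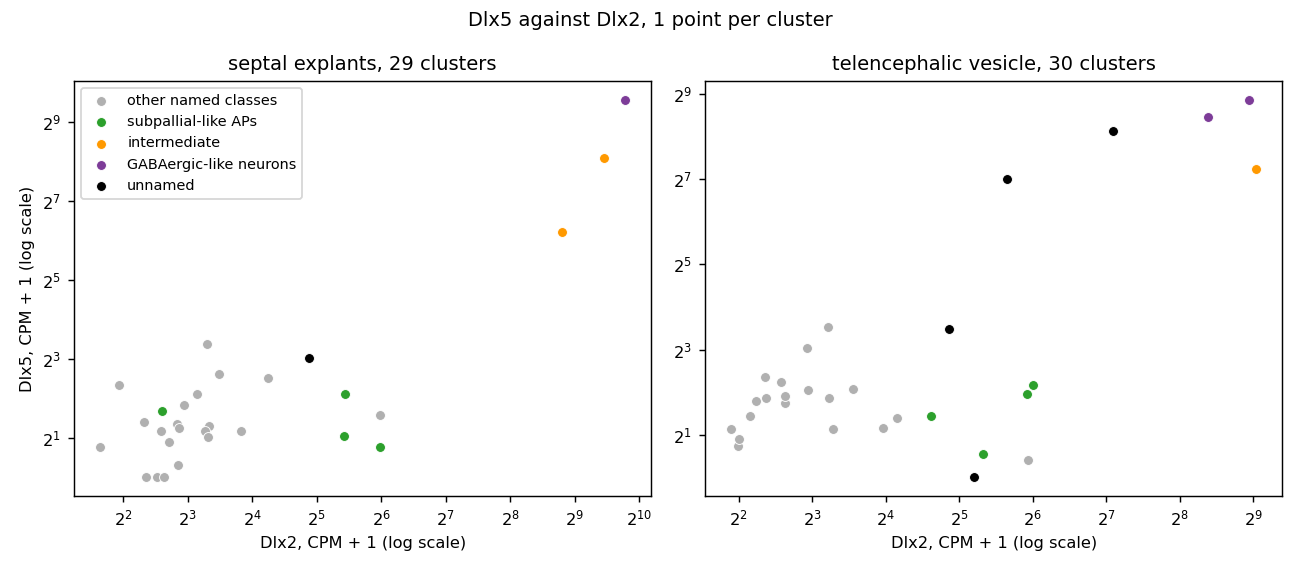
Dlx5 against Dlx2 level (CPM + 1, log axes), 1 point per cluster, coloured by class, for 29 septal and 30 vesicle clusters. Subpallial-like AP clusters reach up to 62.5 and 63.3 CPM of Dlx2 with Dlx5 under 4 CPM, intermediate clusters lie at high Dlx2 with 73.9 to 271 CPM of Dlx5, and GABAergic-like clusters are high in both.

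Across clusters the pairs on 1 chromosome tracked each other most closely in the septum, with Pearson r of log2(CPM + 1) of 0.96 for Dlx1 and Dlx2 and 0.93 for Dlx5 and Dlx6 over 29 clusters. In the vesicle, over 30 clusters, r was 0.90 for Dlx1 and Dlx2 and 0.75 for Dlx5 and Dlx6, while Dlx1 and Dlx5 gave 0.81. Clusters share a library and differ in depth, so these are descriptions. Among other genes, the profile most like Dlx1 was that of Gsx1 in the septum (0.87) and Sp9 in the vesicle (0.89). That most like Dlx2 was Gsx2 (0.85) in the septum and Dlx1as (0.84) in the vesicle. For Dlx5 it was Sp9 (0.93), a zinc finger factor of GABAergic neurons, and in the vesicle Dlx6os1 (0.96). For Dlx6 it was Lhx8 (0.92) and, in the vesicle, the glutamate receptor gene Grik3 (0.92). Gad1 was among the nearest 5 genes for Dlx5 and Dlx6 in the septum and for Dlx6 in the vesicle, and for neither Dlx1 nor Dlx2 in either library.

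Cells with Dlx5 or Dlx6 nearly always held Dlx1 or Dlx2 as well. This was so for 294 of 308 septal lineage cells (95.5%, 92.5 to 97.5%) and 844 of 898 vesicle lineage cells (94.0%, 92.2 to 95.5%). GABAergic-like neurons made up 223 of these 308 septal and 586 of these 898 vesicle cells. Among all such neurons Dlx2 was in 225 of 226 and 572 of 645, so in neurons the share largely follows from how common Dlx2 is. In intermediate clusters 61 of 61 septal and 231 of 234 vesicle cells with Dlx5 or Dlx6 held Dlx1 or Dlx2. Of all intermediate cells, 154 of 234 and 463 of 530 held Dlx2, and 77 and 47 held no member. Dlx1 or Dlx2 was thus common in this class too. Cells with Dlx1 or Dlx2 did not in turn nearly always hold Dlx5 or Dlx6. Of intermediate cells, 96 of 234 in the septum (41.0%) and 249 of 530 in the vesicle (47.0%) held Dlx1 or Dlx2 without either Dlx5 or Dlx6. Cells with only Dlx5 or Dlx6 numbered 0 of 234 septal intermediate cells, where the same floor corresponds to 1.28%, and 3 of 530 in the vesicle (0.566%). In the vesicle neurons they were 33 of 645 (5.12%), where Dlx1 and Dlx2 were lower. At 1 depth the vesicle share was 87.7% (85.0 to 90.1%) over the lineage and 85.9% in neurons, and 97.0% in the intermediate cluster. The septal share was 95.2% over the lineage.

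**Figure D4:**
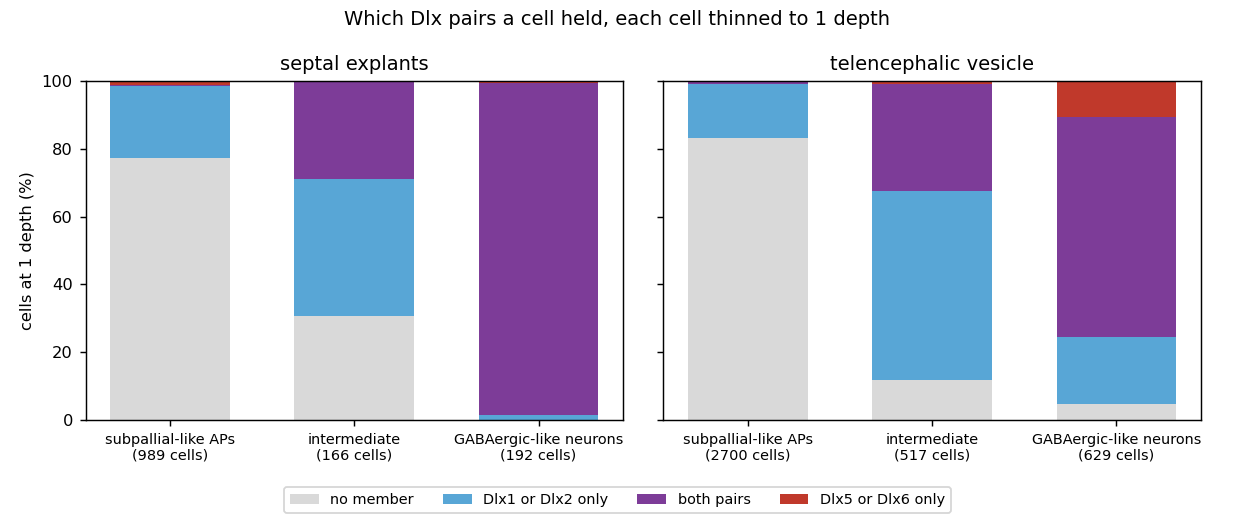
Percentage of cells, each thinned to 1 depth, that held no member, Dlx1 or Dlx2 only, both pairs, or Dlx5 or Dlx6 only, for 3 classes of the lineage in each library. Dlx1 or Dlx2 without the other pair made up 40.4% and 55.9% of intermediate cells, and Dlx5 or Dlx6 without Dlx1 and Dlx2 made up 10.7% of vesicle neurons and at most 1.11% of every other class shown.

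All 6 pairs of members were found together in more lineage cells than the product of their shares gives, by 1.85 to 4.80 times. The ratios were smaller when stage and depth were held alike, with cells split by 10 axis bins and 10 depth groups. Few cells shared both a bin and a depth group, above all within 1 class. This by itself draws a ratio towards 1. Within the same axis bin and depth group, the ratio of observed to expected lineage cells was 1.28 (1.204 to 1.35) for Dlx1 with Dlx2 and 1.27 (1.13 to 1.43) for Dlx5 with Dlx6 in the vesicle. It was between 1.07 and 1.09 for the 4 pairs on different chromosomes. In the septum the ratios were 1.27 and 1.17 for the same-chromosome pairs and between 1.08 and 1.13 for the others, and all of these septal intervals but that of Dlx1 with Dlx2 included 1. In vesicle APs 18 cells held Dlx5 and Dlx6 together against 4.93 expected (ratio 3.65, 2.16 to 5.77). Dlx1 with Dlx5 (1.63, 1.16 to 2.22) and Dlx1 with Dlx6 (1.81, 1.18 to 2.65) also had intervals above 1. So did Dlx2 with Dlx5 (1.37, 1.003 to 1.82), but not Dlx2 with Dlx6 (1.38, 0.903 to 2.02). In septal APs all 4 such pairs, on at most 9 cells each, had intervals including 1. Dlx1 or Dlx2 was held by 60 of the 78 vesicle APs with Dlx5 or Dlx6 (76.9%). In septal APs it was 10 of 24 (41.7%, 22.1 to 63.4%). Dlx1 or Dlx2 only was in 888 of 2737 vesicle and 293 of 1045 septal APs. The septal share is thus not apart from how common Dlx1 or Dlx2 is there. In intermediate clusters the matched ratios of all 4 pairs on different chromosomes had intervals that included 1 in both libraries. These cells were split anew by bin and depth, with few cells in each part. Such ratios thus do not decide whether these pairs go together. Dlx2 with Dlx5 gave 1.17 (0.887 to 1.51) in the septum and 1.06 (0.920 to 1.21) in the vesicle. In this class only septal Dlx1 with Dlx2 (1.22, 1.009 to 1.46) and vesicle Dlx5 with Dlx6 (1.35, 1.09 to 1.65) had intervals above 1. Every ratio for GABAergic-like neurons had an interval that included 1. Dlx2 was in 225 and Dlx5 in 223 of 226 septal neurons, and in 572 and 576 of 645 vesicle neurons. Ratios with these genes thus had little room to leave 1 and do not decide whether members go together in neurons.

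Intermediate cells differed by the members they held, at 1 depth. This comparison covered 166 of the 234 septal cells and 517 of the 530 vesicle cells. Sp9 stood at 7.35, 3.73 and 177 CPM in the septum and at 18.7, 117 and 380 CPM in the vesicle for cells with no member, with Dlx1 or Dlx2 only (67 septal and 289 vesicle cells), and with Dlx5 or Dlx6. Gad2 was at 41.7 CPM in the septal and 178 CPM in the vesicle cells with Dlx5 or Dlx6, and at 0 and 57.3 CPM in those with Dlx1 or Dlx2 only. Cells with Dlx5 or Dlx6 were also the farthest along the axis, with a median of 1.53 in the septum and 0.86 in the vesicle, so stage and members cannot be told apart here. In the septum cluster and members cannot be told apart either, as cluster 28 held more Dlx5 than cluster 1. Cells with Dlx1 or Dlx2 only (0.06 and -0.44) were not farther along than cells with no member (0.28 and -0.26). Mitosis genes were highest in the cells with Dlx5 or Dlx6, at 3779 and 3396 CPM, against 2239 and 2828 CPM with Dlx1 or Dlx2 only and 1279 and 1546 CPM with no member.

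Neurons were set against APs to place the members among all genes. All 4 members were at least 2-fold higher in GABAergic-like neurons in both libraries, as were 13.9% of 10564 septal genes and 13.0% of 13499 vesicle genes. A further 16.3% and 18.5% of genes were at least 2-fold lower. The ratio of CPM in neurons over APs was 54.3 (46.3 to 64.0) for Dlx1, 19.8 (18.2 to 21.6) for Dlx2 and 437 (301 to 659) for Dlx5 in the septum. For Dlx6 it was 855 with an interval from 151 to 34036, since it rests on 1 UMI in APs. In the vesicle the ratios were 8.81 (8.16 to 9.51) for Dlx1, 7.63 (7.17 to 8.11) for Dlx2, 150 (124 to 182) for Dlx5 and 48.5 (35.0 to 68.7) for Dlx6. The intervals of the Dlx1 and Dlx2 ratios were apart in both libraries. Those of Dlx5 and Dlx6 lay above both, but their AP levels were not detectable above the non-neural level, so the sizes of these ratios are not exact.

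The antisense gene Dlx6os1 behaved like Dlx5, at 455 CPM in septal and 1149 CPM in vesicle neurons against 0.807 and 7.70 CPM in APs. Dlx1as reached 229 CPM in vesicle neurons against 4.84 CPM in APs, and had under 50 UMIs in both septal classes together. Dlx3 and Dlx4, which are known from skin, limb and placenta, also stayed under 50 UMIs in both libraries.

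The lists of genes around the members were read beside the members, with folds computed after adding 0.5 UMI to each sum. The 5 genes of GABA synthesis and transport were all higher in neurons in both libraries, with the largest fold for Gad1 in the septum (196 CPM in neurons, 3 UMIs in APs) and for the vesicular GABA transporter Slc32a1 in the vesicle (118 against 0.277 CPM). The smallest vesicle fold was that of Abat (6.27-fold), which breaks GABA down. Of the factors of subpallial neurons, 8 of 16 tested were higher in the septum and 15 of 20 in the vesicle, and none was lower. Sp9 was 464-fold higher in the septum and 77.6-fold in the vesicle, and Lhx8 486-fold and 127-fold. The smallest fold was that of Etv1, 0.74 and 0.818. The factors of subpallial progenitors, upstream of Dlx, had members in both directions in the septum. Of 9 tested in the septum 3 were lower (Gsx2, Olig1 and Olig2) and Gsx1 was 6.35-fold higher, and of 10 in the vesicle 4 were lower and none was higher. Septal Olig1 was at 2.04 CPM in neurons against 35.5 CPM in APs. Vesicle Olig2 was at 4.67 CPM in neurons against 104.9 CPM in APs, while Gsx2 was at 18.03 against 34.2 CPM. The median log2 fold of the progenitor list was 0.35 in the septum and -0.81 in the vesicle, against 0.03 and -0.08 over all genes tested.

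Notch pathway genes, which keep APs undifferentiated, split in the same way in both libraries, with 8 of 12 lower in neurons and 4 higher. The effector Hes5 was lower at 18.8 CPM in septal neurons against 184 CPM in APs and at 18.3 against 213 CPM in the vesicle. The ligands Dll1 and Dll3, with Hes6 and Mfng, were higher, Dll3 by 12.48-fold and 11.4-fold. The receptor Notch3 gave 0 UMIs in septal neurons and 19.99 CPM in septal APs, and Notch2 was at 2.67 CPM in vesicle neurons against 41.1 CPM in APs. Migration genes were higher for 6 of 7 genes in the septum and 7 of 10 in the vesicle, led by Nrp2 (81.5-fold) in the septum and Plxna4 (63.7-fold) in the vesicle, where the chemokine receptor Cxcr4 was lower (2.45 against 10.5 CPM). Mitosis genes were lower for 10 of 10 in the septum and 9 of 10 in the vesicle, where Ube2c was lower but short of 2-fold (329 against 651 CPM). The median log2 fold of this list was -3.33 in the septum and -1.47 in the vesicle. Vesicle Top2a was still at 216 CPM in neurons against 613 CPM in APs. Whether the vesicle neuron class holds dividing cells was not tested.

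Within the septal library the reporters separate the embryos in part. GABAergic-like neurons with at least 3 eYFP UMIs (134 cells) held Dlx1 at 550 CPM, Dlx2 at 878, Dlx5 at 768 and Dlx6 at 53.9. Those with tdTomato and no eYFP numbered 7 and held 509, 658, 534 and 49.7 CPM. Among subpallial-like APs, Dlx2 was at 43.4 CPM in 620 cells with eYFP and 58.8 CPM in 50 with tdTomato only. These reporters differ in stage and in the cells they mark, so the differences cannot be assigned to either.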

How the data were processed

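Libraries of septal explants (10x 3′ kit v2, about 10000 cells loaded) and of telencephalic vesicles (kit v3.1, about 20000 cells loaded) were made from pooled embryos. The deposited files hold raw UMI counts per gene and barcode, which the authors made with Cell Ranger 2.1.1 (septum) and, per the file headers, 7.1.0 (vesicle). The labels list mm10. The septal run used default parameters. Whether intronic reads were counted in the vesicle is not given in the sources used here.

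The counts were used as deposited. Barcodes whose mitochondrial share was over 3 MAD from the median were removed (5444 and 12471 kept), then Scrublet doublets (60 and 713). Cells were clustered with scanpy 1.11.5 (2000 variable genes, 30 components, Leiden resolution 1.5) without Dlx, cell cycle, sex-linked and reporter genes. Clusters needed 3 markers for a name, and 1 septal and 4 vesicle clusters (131 and 1087 cells) stayed unnamed. The axis used 11 neuronal and 9 AP genes. CPM values (UMIs of a gene scaled to the total of all UMIs) were computed on counts summed over cells. Folds needed 50 UMIs in the 2 classes together, so a gene could pass through 1 class alone, and were called past 2-fold. Likeness was computed over genes with at least 200 UMIs, and the 5 nearest were kept. Genes of the lists were named by largest and smallest fold and role, and some genes of these lists are counted but not reported here by name. Fold calls were checked on simulated data. Pair ratios were checked on simulated pairs over all cells that passed the mitochondrial filter, split by depth alone. That check does not cover the smaller groups by bin and depth used for the ratios given here. The members and lists were chosen with earlier results of these data known. Alternatives changed filters, clustering, seed, axis, bins, depth, detection and fold thresholds. No test was run, as each group was 1 library.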

Additional observations from a re-analysis of the deposited data

How the results depend on the processing

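Recomputing the AP-side shares, the co-detection share (Dlx5 or Dlx6 cells that also held Dlx1 or Dlx2), the detection shares and the counts of genes under the alternatives gave 153 values. Of these, 85 moved by less than their interval or by less than 1.5 times for counts, and 68 moved by more. Dlx2 was above Dlx1, and Dlx1 above Dlx5 and Dlx6, in AP-side share under all 11 septal and 12 vesicle settings, the main ones included, though the vesicle intervals of Dlx1 and Dlx2 overlapped with bins of equal width. The first bin at 50% of the maximum moved in 19 of 84 recomputations. It was the same for Dlx1 and Dlx2, and not earlier for Dlx5, under all 23 settings. It was later for Dlx5 under 4 of 11 septal and 11 of 12 vesicle settings and tied with Dlx2 under the others. Past 1.5-fold, 2626 septal genes were higher and 2636 septal genes were lower and 3036 vesicle genes were higher and 3932 vesicle genes were lower. Past 4-fold, 413 septal genes were higher and 725 septal genes were lower and 615 vesicle genes were higher and 825 vesicle genes were lower. Requiring 2 UMIs for detection, the co-detection share was 99.2% in the septum and 86.5% in the vesicle, and any member was held by 13.8% of septal APs, 18.05% of vesicle APs, 91.9% of vesicle neurons. With each cell thinned to 1 depth, the AP-side share was 2.65% for septal Dlx1, 9.40% for Dlx2 and 6.09% for vesicle Dlx1, 11.7% for Dlx2, 0.498% for Dlx5, 1.19% for Dlx6, and the co-detection share was 87.7% in the vesicle, and any member was held by 22.6% of septal APs, 16.7% of vesicle APs, 95.4% of vesicle neurons. With doublets kept, the AP-side share was 8.72% for septal Dlx2, 0% for Dlx6 and 15.2% for vesicle Dlx1, and the co-detection share was 91.9% in the vesicle, and any member was held by 34.4% of septal APs. At a clustering resolution of 0.8, the co-detection share was 91.9% in the vesicle, and any member was held by 35.1% of septal APs. With the Dlx genes kept in clustering, the AP-side share was 2.89% for septal Dlx1, 8.60% for Dlx2, 0% for Dlx6 and 11.5025% for vesicle Dlx1, 18.5% for Dlx2, 1.06% for Dlx5, and any member was held by 27.1% of septal APs, 92.6% of septal neurons, 30.9% of vesicle APs. With bins of equal width, the AP-side share was 19.3% for septal Dlx1, 30.4% for Dlx2, 3.79% for Dlx5, 6.32% for Dlx6 and 61.2% for vesicle Dlx1, 62.5% for Dlx2, 19.1% for Dlx5, 33.7% for Dlx6. With cell cycle genes kept in clustering, the AP-side share was 3.03% for septal Dlx1, 8.09% for Dlx2, 0% for Dlx6 and 11.7% for vesicle Dlx1, 19.1% for Dlx2, and any member was held by 32.4% of vesicle APs. Without the mitochondrial filter, the AP-side share was 9.52% for septal Dlx2, 0% for Dlx6 and 12.505% for vesicle Dlx1, 19.4% for Dlx2, and the co-detection share was 91.5% in the vesicle, and any member was held by 31.2% of vesicle APs. At a resolution of 2.5, the AP-side share was 8.41% for septal Dlx2, 0% for Dlx6. With a minimum of 10 UMIs, 2729 vesicle genes were higher. With another random seed, the AP-side share was 11.7% for vesicle Dlx1, 18.6% for Dlx2, and any member was held by 42.3% of vesicle APs. With an axis from 3 neuronal and 3 AP genes, the AP-side share was 15.4% for vesicle Dlx1, 23.1% for Dlx2. With unnamed clusters of at least 5 GABAergic markers added, an alternative chosen after seeing the data, the co-detection share was 91.9% in the vesicle. The shorter axis and the added clusters leave detection shares in APs as they are by construction. Depth limits Dlx6 most, with 174 septal and 416 vesicle lineage UMIs. No paired analysis was possible because each group was 1 library of pooled embryos and the labels number no replicates. The causes of these changes were not tested.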
